A study of Homo sapiens with 3 samples.

Results

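The 45 genes described here encode proteins that license replication origins, fire them, copy the DNA and supply its building blocks. They were chosen by name as a gene module, with earlier results of these data known. They were matched to the array probes through the transcript accession of each probe. All 45 were measured, by at least 1 probe whose signal was well above background on each of 3 arrays, as were 12031 genes in total. The cells were HCT116, an established human colon cancer cell line, treated for 48 h with control siRNA or with 1 of 2 siRNAs, #7 and #8, against *HOXA5* short RNA, a noncoding transcript of the *HOXA* cluster. The question was which genes differ when this RNA is silenced. Total RNA (400 ng) was labeled with a single dye, and 1 array was hybridized per condition.

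Origins are licensed in G1 phase, when the origin recognition complex, CDC6 and CDT1 load the ring-shaped MCM2 to MCM7 helicase onto DNA. The kinases CDC7-DBF4 and CDK2 then recruit CDC45 and GINS, which turn the ring into an active helicase, and polymerases, clamp and clamp loader build the new strands behind it. Many of these genes are transcribed at the G1/S transition under E2F factors, so their RNA is known to be more abundant in dividing than in resting cells.

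The siRNAs are shown because their sequences overlap. Capitals mark the run of 17 bases that they share, bases 5 to 21 of siRNA #7 and 1 to 17 of siRNA #8.
siRNA #7: gagaAACUGAAAGACAACAUA
siRNA #8: AACUGAAAGACAACAUAggcg
Each siRNA has 21 bases, and 4 bases at one end of each are its own. The sequence of control siRNA is not given in the sources used here.

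The deposited intensities were put on the 75th percentile of the control siRNA array, and these values are called scaled intensities below. The 75th percentile itself was 52.8 for control siRNA, 42.1 for siRNA #7 and 42.8 for siRNA #8, and between 19069 and 20473 of 50599 gene probes were well above background. The array probe for *HOXA5* had log2 ratios to control siRNA of -0.36 ± 0.25 (spot-to-spot SD) with siRNA #7 and -0.23 ± 0.26 with siRNA #8. This probe was matched by a *HOXA5* accession and its sequence was not available, so these ratios do not measure the silencing of the short RNA. The paper measured the short RNA by quantitative PCR and reports its selective knockdown with either siRNA, without an effect on *HOXA5* mRNA. Of 8 colon epithelial markers 6 passed, among them *EPCAM*, *KRT8* and *CDX2*, whereas *VIL1* and *LGALS4* did not. No marker of leukocytes (0 of 3) or endothelium (0 of 2) passed, and of 3 fibroblast markers *COL1A1* did. All arrays lay on 1 slide. With 1 array per condition there is no replicate check and no p-value. Errors given as spot-to-spot SD come from probes printed 10 times and cover the measurement within an array, not differences between cultures. For a probe with several spots, this SD was divided by the square root of their number.

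With siRNA #8, the RNA of all 45 replication genes was below its level with control siRNA, whereas 49.2% of all genes were. The median log2 ratio of the 45 genes was -0.61, with quartiles of -0.90 and -0.42, beside 0.01 over all genes. Among them 25 were at least 1.5-fold lower and 9 at least 2-fold lower, compared with 10.3% and 3.03% of all genes. The count of 9 was 19 under spike-in scaling (5.94% of all genes) and 7 with the percentile over probes well above background (2.58%). It was 7 after normexp correction (1.49% of all genes) and 6 after removal of the deviation of neighbouring spots (2.64%). *CDC45*, *GINS2* and *RFC2* were at least 2-fold lower under all 10 alternatives, and the other 6 lost that call under at least 1. The lowest ratio was that of *CDC6* (-1.46) and the highest that of *RPA3* (-0.04). The ratios of *GINS1*, *POLE* and *RPA3* lay within 1 spot-to-spot SD of 0. *RPA3* was the only member whose sign depended on the scaling, at 0.02 when the percentile was taken over probes well above background. RNA was taken from whole cultures, so fewer cells in S phase and less of each RNA per cell cannot be told apart.

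With siRNA #7, 32 of 45 genes were below control siRNA, beside 48.3% of all genes, and the median log2 ratio was -0.17, beside 0.02. *CDC6* alone was at least 2-fold lower, and *CDC6* and *CDC7* were at least 1.5-fold lower. The 2-fold call of *CDC6* was lost after normexp correction and neighbour removal. Over all genes 1.72% and 6.92% passed these thresholds, so the counts of 1 and 2 among 45 were near the background. The range ran from -1.12 for *CDC6* to 0.77 for *GINS3*, the only member at least 1.5-fold higher. The ratios of 17 members lay within 1 spot-to-spot SD of 0, among them those of *PCNA*, *CDC45*, *RRM1* and *TK1*. Under scaling to spike-in RNA, 44 of 45 were below control siRNA, with *GINS3* the exception, beside 78.8% of all genes. The sign of 14 members depended on at least 1 of the 10 alternatives.

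Set directly against each other, the siRNA #8 array was below the siRNA #7 array for 44 of 45 genes, beside 51.2% of all genes. The median log2 ratio was -0.42, beside -0.01. Of the 45 genes 14 were at least 1.5-fold lower with siRNA #8 and 6 at least 2-fold lower, beside 11.6% and 3.37% of all genes. The count of 6 was 3 after normexp correction (0.939% of all genes) and 2 after removal of the deviation of neighbouring spots (3% of all genes), *CDC45* being the only one of the 6 kept under all 10 alternatives. The exception in sign was *RPA3*, at 0.35, joined by *RPA2* under 4 alternatives (0.01 to 0.11) and by *CDC7* after removal of the neighbours' deviation (0.21, from -0.28). This ratio holds no control array, whereas both comparisons above share one. Before any scaling, the intensity was below control siRNA for 44 of 45 genes with siRNA #7 and for 45 of 45 with siRNA #8. Both siRNA arrays were dimmer before scaling, with a 75th percentile of 42.1 and 42.8 beside 52.8 for control siRNA. The share over all genes was not computed for the unscaled intensities, so these counts do not set the members apart from other genes.

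**Figure D1:**
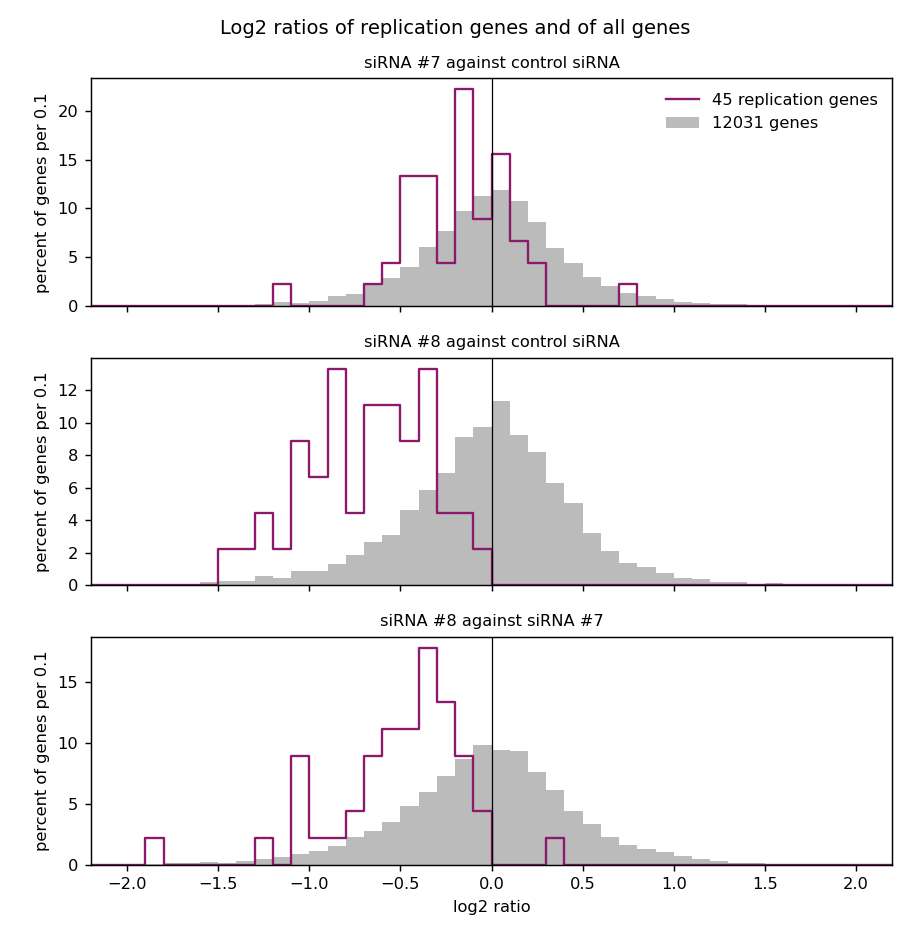
Distribution of log2 ratios in bins of 0.1 for 12031 genes (grey bars) and for the 45 replication genes (line), each as percent of its own genes, for the 3 pairs of arrays. With siRNA #8 against control siRNA the line lies wholly below 0 (median -0.61), whereas with siRNA #7 it straddles 0 (median -0.17); under 1 other scaling *RPA3* sits at 0.02 with siRNA #8.

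The distributions show how the same genes stand in the 3 pairs of arrays. With siRNA #8 the members were concentrated in the lower part of the distribution of all genes. Their upper quartile (-0.42) lay below the lower quartile of all genes (-0.28). The lowest member was at -1.46 and the lowest of all genes at -2.58. The SD over the 45 ratios was 0.35 with siRNA #8 and 0.30 with siRNA #7. Across the 45 genes, the ratio had a Spearman's rho of 0.17 with the mean level for siRNA #8 and of 0.16 for siRNA #7, values given as a description over probes of the same arrays.

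**Figure D2:**
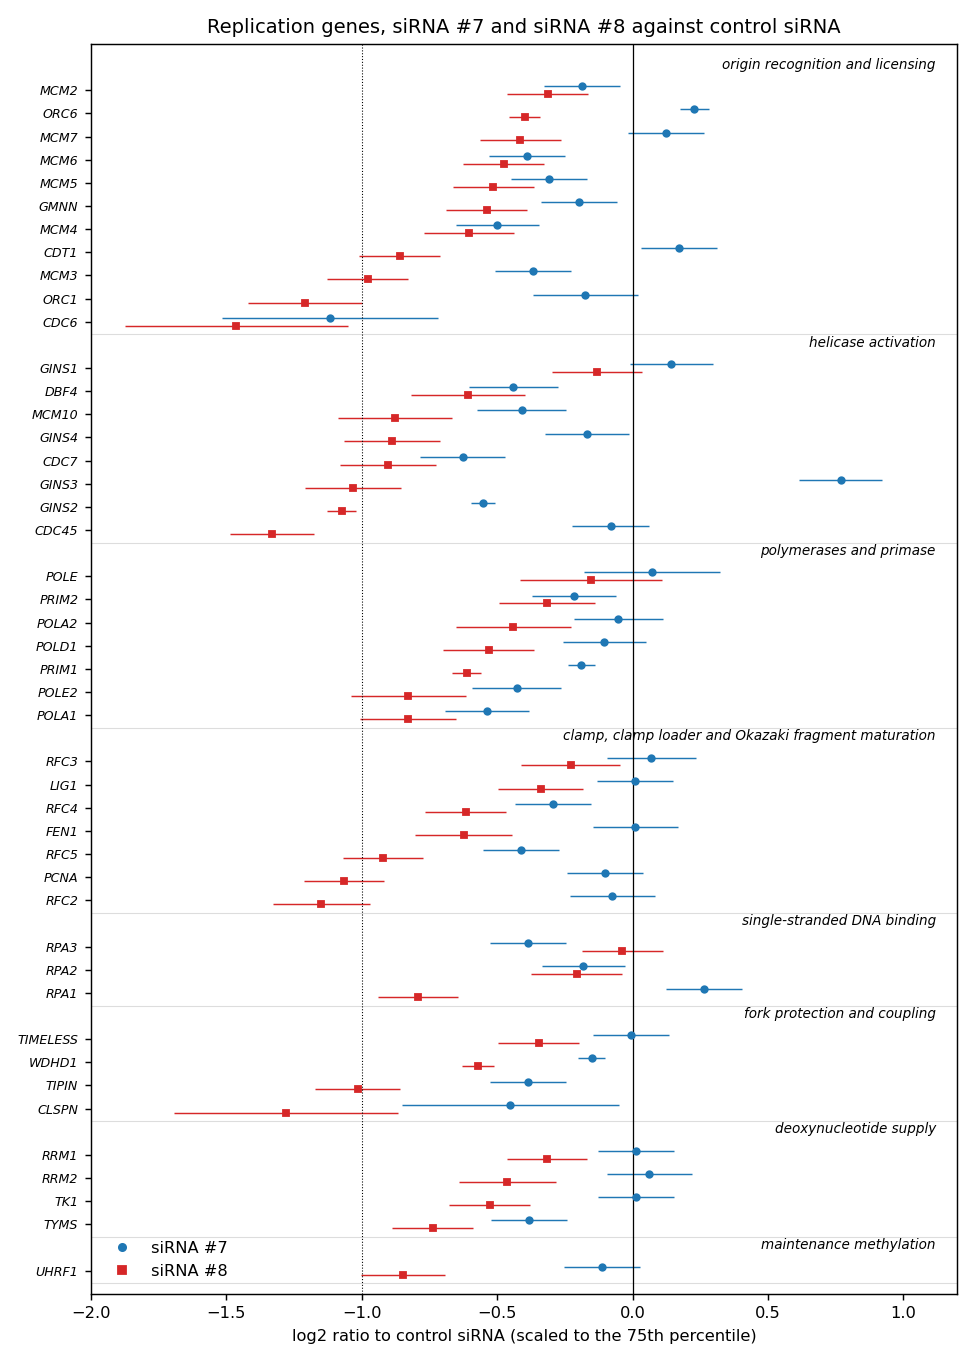
Log2 ratio to control siRNA of each replication gene with siRNA #7 (circles) and siRNA #8 (squares), grouped by role, with its spot-to-spot SD as a bar and a dotted line at 2-fold lower. All squares lie below 0 (*RPA3*, at -0.04, is above 0 under 1 other scaling), and the circles of *CDC6* (-1.12) and *GINS3* (0.77) stand at both ends for siRNA #7.

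The plot by role orders the genes as they act, and the roles are described in that order. For the counts per role, the shares over all genes with siRNA #8 were 10.3% at least 1.5-fold lower and 3.03% at least 2-fold lower. With siRNA #7 these shares were 6.92% and 1.72%. Among the 11 genes of origin recognition and licensing, the median was -0.54 (siRNA #8) and -0.20 (siRNA #7), and 5 and 1 of them were at least 1.5-fold lower. *CDC6*, the ATPase that joins the origin recognition complex to load MCM2 to MCM7, had scaled intensities of 33.4 (control siRNA), 15.4 (siRNA #7) and 12.1 (siRNA #8). It was the lowest member with either siRNA, at -1.12 ± 0.40 and -1.46 ± 0.41. This probe was dimmer than the 75th percentile of each array, and after normexp background correction, which adds an offset of 50 to every intensity, the ratios were -0.22 and -0.35.

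*CDT1*, the other loading factor, had scaled intensities of 2783 (control siRNA), 3137 (siRNA #7) and 1534 (siRNA #8). The siRNA #8 array thus stood apart from both others, with log2 ratios of -0.86 ± 0.15 to control siRNA and -1.03 ± 0.15 to siRNA #7, while siRNA #7 gave 0.17 ± 0.14, which was -0.12 under spike-in scaling and -0.11 after normexp correction. *GMNN*, which encodes geminin, the inhibitor of CDT1, had ratios of -0.54 with siRNA #8 (-0.20 after neighbour removal) and -0.20 with siRNA #7. *ORC1*, the largest ORC subunit and the one that binds the complex to DNA in G1 phase, gave 123 (control siRNA), 109 (siRNA #7) and 53.4 (siRNA #8). Its log2 ratios were -0.17 ± 0.19 and -1.21 ± 0.21, so that only the siRNA #8 array was beyond the spot error, and the latter ratio was -0.67, within 2-fold, after normexp correction. *ORC6*, a subunit of the same complex, was 0.23 with siRNA #7 (-0.06 under spike-in scaling) and -0.40 with siRNA #8.

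The 6 helicase subunits MCM2 to MCM7 were within 2-fold in every comparison, but *MCM3* passed 2-fold with siRNA #8 under 4 of 10 alternatives (-1.23 to -1.01). With siRNA #8 all were below control siRNA, from -0.98 for *MCM3* to -0.31 for *MCM2*, a span of 0.67 over subunits that work in equal number. *MCM3* lay just outside the 2-fold threshold, with scaled intensities of 6765 (control siRNA), 5246 (siRNA #7) and 3433 (siRNA #8). With siRNA #7, 5 of the 6 were below control siRNA, from -0.50 for *MCM4* to 0.12 for *MCM7*. *MCM7* has a second probe, and both gave 0.12 with siRNA #7, within the spot error of 0.14 and with the opposite sign under 4 alternatives (-0.19 to -0.02). With siRNA #8 its probes gave -0.42 and -0.50. Both *MCM5* probes were below 0 with either siRNA, at -0.31 and -0.08 with siRNA #7 and -0.51 and -0.46 with siRNA #8.

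The 8 genes of helicase activation had the lowest median of the roles with more than 1 gene, at -0.90 with siRNA #8 and -0.29 with siRNA #7. Of these 8, 7 were at least 1.5-fold lower with siRNA #8 and 3 at least 2-fold lower, beside 10.3% and 3.03% of all genes. *CDC45*, which joins MCM2 to MCM7 and GINS in the active helicase, had scaled intensities of 1575 (control siRNA), 1489 (siRNA #7) and 626 (siRNA #8). The first 2 values were alike within the spot error (-0.08 ± 0.14, and 0.15 after neighbour removal), and the siRNA #8 array was 2.52-fold below control siRNA (-1.33 ± 0.16) and 2.38-fold below siRNA #7 (-1.25 ± 0.15).

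The ratios of the 4 subunits of GINS spanned 1.32 on the log2 scale with siRNA #7 and 0.94 with siRNA #8. *GINS2* had scaled intensities of 2141 (control siRNA), 1461 (siRNA #7) and 1017 (siRNA #8), and its log2 ratios were -0.55 ± 0.04 and -1.07 ± 0.05. The 3 arrays were well separated for this gene, whose probe was printed 10 times, so that these errors are those of a mean over spots. *GINS3* gave 737 (control siRNA), 1256 (siRNA #7) and 360 (siRNA #8), so it was the highest of all members with siRNA #7 (0.77 ± 0.15), 2.05-fold lower with siRNA #8 (-1.03 ± 0.18) and 3.49-fold apart between the siRNAs. Its 16 passing neighbours within 3 rows and 3 columns of the array deviated from their own means in the same order, by a median of 0.24, 0.42 and -0.50 on the log2 scale. With this deviation removed the ratios of *GINS3* were 0.62 with siRNA #7 and -0.29 with siRNA #8. *GINS4* had ratios of -0.17 and -0.89, and *GINS1* of 0.14 and -0.13, the former of opposite sign under spike-in scaling, normexp correction and neighbour removal (-0.17 to -0.05).

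*CDC7*, the kinase that phosphorylates the MCM ring at origin firing, was lower with both siRNAs, with scaled intensities of 413 (control siRNA), 267 (siRNA #7) and 221 (siRNA #8). The log2 ratios were -0.63 ± 0.16 and -0.90 ± 0.18. *DBF4*, its regulatory subunit, had ratios of -0.44 and -0.61, and *MCM10*, a factor needed for origin firing, of -0.41 and -0.88.

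The 7 polymerase and primase genes had a median of -0.53 with siRNA #8 and -0.19 with siRNA #7, and none was 2-fold lower. With siRNA #8, 3 were at least 1.5-fold lower, namely *POLA1* (-0.83), the catalytic subunit of polymerase alpha, *POLE2* (-0.83), a subunit of the leading-strand polymerase epsilon, and *PRIM1* (-0.61), the subunit that makes the RNA primer. *POLE*, the catalytic subunit of polymerase epsilon, stood highest at -0.15 ± 0.26. *POLA1* and *POLE2* also had the lowest ratios of this role with siRNA #7, at -0.54 and -0.43. *POLD1*, the catalytic subunit of the lagging-strand polymerase delta, had ratios of -0.10 with siRNA #7 and -0.53 with siRNA #8.

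Among the 7 genes of the clamp, the clamp loader and Okazaki fragment maturation, 5 were at least 1.5-fold and 2 at least 2-fold lower with siRNA #8, with a median of -0.62. *PCNA*, the sliding clamp that holds polymerases on DNA, had scaled intensities of 3267 (control siRNA), 3046 (siRNA #7) and 1561 (siRNA #8). The ratio was -1.07 ± 0.15 with siRNA #8, which was -0.91 after neighbour removal and so within 2-fold. With siRNA #7 it was -0.10 ± 0.14, and -0.40 as the mean of its probes. Its other passing probes gave -0.84 and -1.42 with siRNA #8 but -0.23 and -0.87 with siRNA #7, so the probes differed more in the siRNA #7 comparison. *RFC2*, a subunit of the clamp loader, gave 390 (control siRNA), 370 (siRNA #7) and 176 (siRNA #8). As for *CDC45*, the first 2 arrays lay close (-0.07 ± 0.16) and the siRNA #8 array apart (-1.15 ± 0.18).

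The other small clamp loader subunits had ratios with siRNA #8 of -0.92 (*RFC5*), -0.62 (*RFC4*) and -0.23 (*RFC3*). The probes of *RFC3* differed in sign with siRNA #7, but the ratio of the brighter lay within its spot-to-spot SD of 0.16. The brighter had scaled intensities of 135 (control siRNA), 141 (siRNA #7) and 115 (siRNA #8) (0.07 with siRNA #7), and the second had 72.0, 66.5 and 57.6 in that order (-0.11). *FEN1*, the nuclease that removes the primer flap, and *LIG1*, the ligase that seals the nick, both had a ratio of 0.01 with siRNA #7, and of -0.62 and -0.34 with siRNA #8.

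The ratios of the 3 subunits of RPA, which coats single-stranded DNA, spanned 0.75 on the log2 scale with siRNA #8. *RPA1* had scaled intensities of 2467 (control siRNA), 2965 (siRNA #7) and 1425 (siRNA #8), so the siRNA #8 array was lowest, at -0.79 ± 0.15 to control siRNA and -1.06 ± 0.15 to siRNA #7, while siRNA #7 gave 0.27, which was -0.03 under spike-in scaling and -0.04 after normexp correction. *RPA3* had the opposite order between the siRNAs, with 3854 for control siRNA, 2948 for siRNA #7 and 3754 for siRNA #8. *RPA2* gave 1138 (control siRNA), 1003 (siRNA #7) and 986 (siRNA #8), and its second probe 716, 551 and 655, so its probes differed in the sign of siRNA #8 against siRNA #7 (-0.02 and 0.25). The median of these subunits was -0.21 (siRNA #8) and -0.18 (siRNA #7).

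Of the 4 genes that protect the fork and couple helicase to polymerase, 2 were at least 2-fold lower with siRNA #8, and the median was -0.79. *CLSPN*, which encodes claspin, the adaptor that passes the checkpoint signal from ATR to CHK1, had scaled intensities of 35.8 (control siRNA), 26.2 (siRNA #7) and 14.7 (siRNA #8). The probe was dim, with ratios of -0.45 ± 0.40 and -1.28 ± 0.41, and after normexp correction that with siRNA #8 was -0.37. *TIPIN*, the partner of TIMELESS, gave 1219 (control siRNA), 934 (siRNA #7) and 603 (siRNA #8), and the 3 arrays were in the same order with ratios of -0.38 ± 0.14 and -1.01 ± 0.16. Under 3 alternatives the latter was just within 2-fold (-0.99 to -0.95). *TIMELESS* itself had ratios of -0.01 and -0.35, and *WDHD1*, which tethers polymerase alpha to the helicase, of -0.15 and -0.57.

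The 4 genes of deoxynucleotide supply had a median of -0.49 with siRNA #8 and 0.01 with siRNA #7. *TYMS*, the thymidylate synthase targeted by fluorouracil, was the only one at least 1.5-fold lower, at -0.74 with siRNA #8, and had -0.38 with siRNA #7. *RRM1* and *RRM2*, the subunits of ribonucleotide reductase, and *TK1*, the thymidine kinase, lay from 0.01 to 0.06 with siRNA #7 and from -0.53 to -0.32 with siRNA #8. *UHRF1*, which recruits the maintenance DNA methyltransferase to newly copied DNA, had scaled intensities of 1250 (control siRNA), 1156 (siRNA #7) and 695 (siRNA #8). Its ratio with siRNA #8 was -0.85, and its second probe gave -1.02.

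Where 2 or more probes of a member passed, they could be compared. There were 7 such genes with 8 further probes, and with siRNA #8 all 8 had the sign of the brightest probe, as did 7 of 8 with siRNA #7. A further 4 probes of *POLE*, *PRIM2*, *DBF4* and *RPA1* were not well above background on all arrays and were not used.

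The probes of *GINS2*, *ORC6*, *PRIM1* and *WDHD1* were printed 10 times per array, so their spots show the measurement error directly. For *GINS2*, spots ranged from 1979 to 2303 with control siRNA, from 1214 to 1621 with siRNA #7 and from 965 to 1080 with siRNA #8, with no overlap among arrays. For *ORC6* the ranges were 208 to 250, 240 to 290 and 160 to 192 in that order. The siRNA #7 spots of *ORC6* were thus partly within the control range and mostly above it.

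For *PRIM1* the spots ranged from 597 to 899, 655 to 736 and 425 to 566, and for *WDHD1* from 385 to 467, 353 to 432 and 269 to 310. In all 4 genes every siRNA #8 spot was below every spot of both other arrays.

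**Figure D3:**
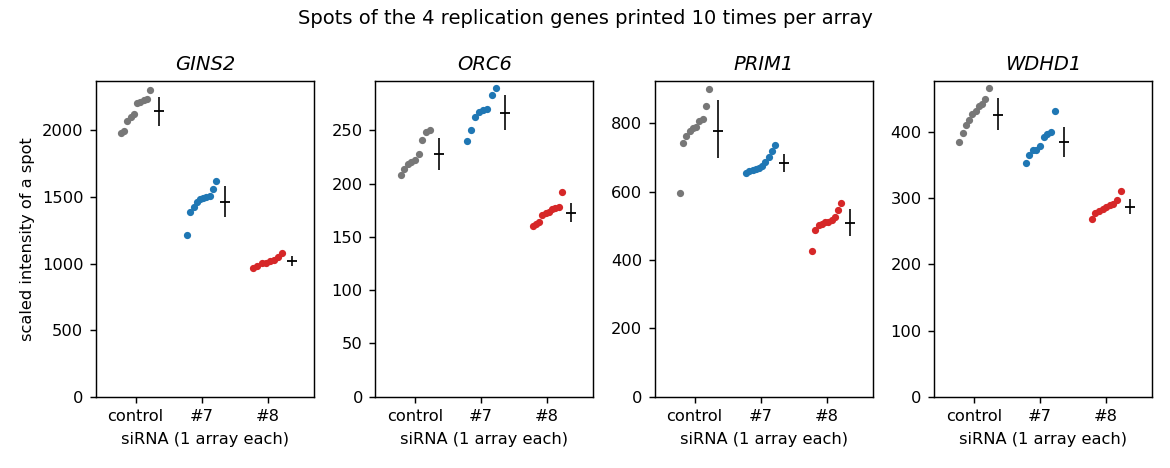
Scaled intensity of each spot of *GINS2*, *ORC6*, *PRIM1* and *WDHD1* on the 3 arrays (8 to 10 spots each, drawn in order of value), with the mean and 1 SD of the log2 values beside them. The siRNA #8 spots lie below all others in each panel, and the siRNA #7 spots of *ORC6* (240 to 290) lie mostly above control siRNA (208 to 250).

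Spots of 1 array share the same RNA and labeling, so the plot of repeated spots shows how far the arrays differ for these 4 probes and nothing about other cultures.

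Promoter sequence was examined as a description of the genes chosen. Many of them are known to be transcribed under E2F factors. An excess of E2F letters over all promoters is therefore no independent support. Windows of 300 bases, from 250 before to 50 after the start, came from RefSeq (GRCh38.p14) and were found for 40 of 45 genes. No window was matched for *MCM4*, *MCM5*, *GINS4*, *RPA2* and *RPA3*. An E2F motif, searched as TTTCCCGC, TTTCGCGC, TTTGCCGC or TTTGGCGC on both strands, was present in 19 of the 40 (47.5%). Of all 27305 promoters 3.33% held it, and of those of genes with a passing probe 5.51%. The NF-Y letters CCAAT were in 22 of 40 (55.0%), beside 35.7% of all promoters and 37.2% of those of genes with a passing probe. The CHR letters TTTGAA were in 2 of 40, beside 15.4% and 9.30%. Matches may overlap, as they do in *MCM2*, where both start within 4 bases of each other, and each promoter was counted once.

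Of the 9 members at least 2-fold lower with siRNA #8, 5 held an E2F match, and the stretch around it is shown for these. Capitals mark the match on the strand of the gene.
CDC6, chr17:40287846-40287928, plus strand: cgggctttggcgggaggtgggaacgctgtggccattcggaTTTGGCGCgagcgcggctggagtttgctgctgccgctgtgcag
CLSPN, chr1:35769936-35770023, minus strand: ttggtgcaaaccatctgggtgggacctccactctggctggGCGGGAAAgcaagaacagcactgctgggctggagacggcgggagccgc
GINS2, chr16:85688938-85689025, minus strand: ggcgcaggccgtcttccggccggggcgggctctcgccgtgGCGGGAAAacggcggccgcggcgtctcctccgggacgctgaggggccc
PCNA, chr20:5126634-5126721, minus strand: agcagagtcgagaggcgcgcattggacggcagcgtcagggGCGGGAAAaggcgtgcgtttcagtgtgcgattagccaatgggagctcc
GINS3, chr16:58392426-58392513, plus strand: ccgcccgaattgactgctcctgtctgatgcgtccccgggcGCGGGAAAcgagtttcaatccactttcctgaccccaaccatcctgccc
The match begins 7 bases after the start in *CDC6*, 5 before it in *CLSPN* and *GINS3*, 31 before it in *GINS2* and 59 before it in *PCNA*. The other 4 members at least 2-fold lower, *CDC45*, *ORC1*, *RFC2* and *TIPIN*, had no match in this window.

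Among the 9 members at least 2-fold lower with siRNA #8 the share with an E2F match was 55.6%, and among the other members 45.2% (14 of 31). The median log2 ratio with siRNA #8 was -0.83 for the 19 members with a match and -0.61 for the 21 without, and with siRNA #7 it was -0.11 and -0.15. The ranges of both groups overlapped widely, from -1.46 to -0.13 and from -1.33 to -0.32 with siRNA #8. A match is only a description of the letters in this window.

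Other cell cycle genes were set beside the 45 to see where they differed. Of 38 other replication genes, such as further ORC, polymerase and cohesion factors, 36 were measured, and 30 of these were below control siRNA with siRNA #8, with a median of -0.47 and 3 at least 2-fold lower. The lowest was *ESCO2* (-2.46 ± 0.34), a cohesin acetyltransferase of S phase, and the highest *POLE3* (0.45), a histone-fold subunit of polymerase epsilon. The *ESCO2* probe was dim, with scaled intensities of 91.9 (control siRNA) and 16.7 (siRNA #8). With siRNA #7 the median of this list was -0.03, and 22 of 36 were below control siRNA. Over all genes, 49.2% were below control siRNA with siRNA #8 and 48.3% with siRNA #7, and 3.03% were at least 2-fold lower with siRNA #8.

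Of 23 regulators of the G1/S transition, 14 were below control siRNA with siRNA #8 and 10 with siRNA #7. These counts lay near the shares over all genes, 49.2% and 48.3%. The medians were -0.19 and 0.12, the latter -0.17 under spike-in scaling and -0.06 after normexp correction. *CCNA2*, the S phase cyclin, was lowest with siRNA #8 (-1.08) and *E2F5*, a repressive E2F factor, highest (0.88 ± 0.35). The *E2F5* probe was dim, and after normexp correction *CCNE1*, a G1/S cyclin, was the highest (0.31). Of 35 G2/M genes, all were below control siRNA with siRNA #8 (34 under 3 of the 10 alternatives) and 23 with siRNA #7, with medians of -0.58 and -0.12. The lowest was *NUF2* (-1.41), a kinetochore subunit, and the highest *CDC25B* (-0.02), a phosphatase that activates CDK1. In siRNA #8 against siRNA #7 the medians were -0.40, -0.35 and -0.49 for these 3 lists, beside -0.42 for the 45 genes. The lists were not tested against one another.

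**Figure D4:**
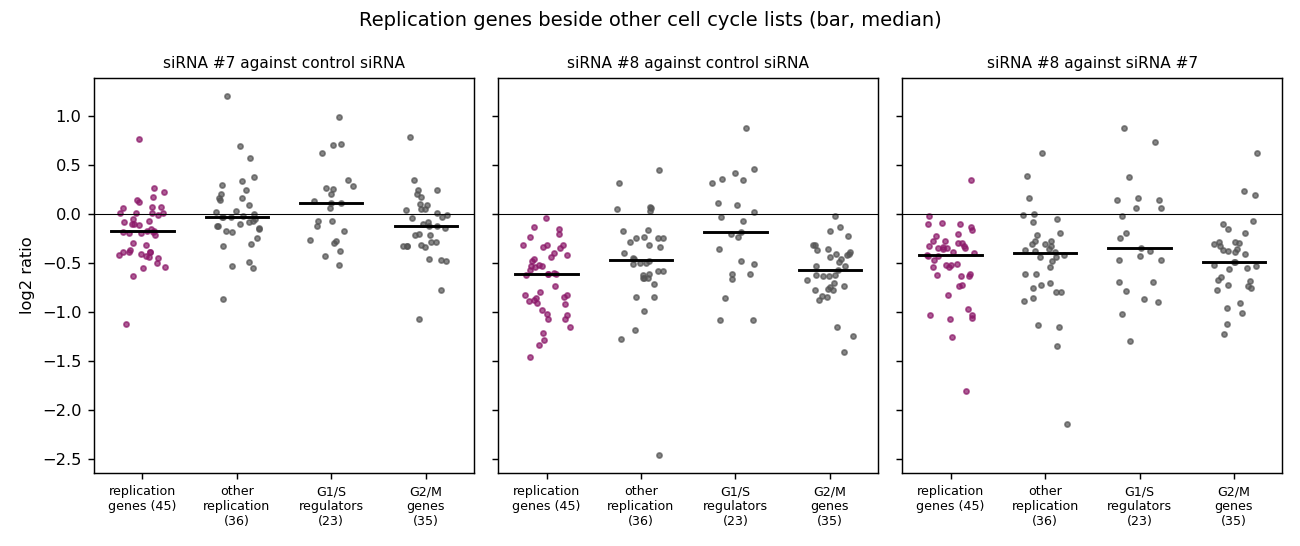
Log2 ratio of each measured gene (points) and the median (bar) for the 45 replication genes, 36 other replication genes, 23 G1/S regulators and 35 G2/M genes in the 3 pairs of arrays. With siRNA #8 the medians are -0.61, -0.47, -0.19 and -0.58, and with siRNA #7 -0.17, -0.03, 0.12 (-0.17 under spike-in scaling) and -0.12.

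The promoters of these lists differed in the same 3 motifs. The E2F letters were in 14.8% of the promoters of other replication genes, 35.3% of those of G1/S regulators and 10.3% of those of G2/M genes. The CHR letters were in 69.0% of the G2/M promoters (20 of 29), beside 2 of 40 for the replication genes. The plot of lists shows the genes behind each median.

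The median of the 45 genes was computed under each of 10 other ways of processing the arrays or of choosing probes. It ran from -0.86 to -0.56 with siRNA #8, from -0.47 to -0.17 with siRNA #7 and from -0.42 to -0.33 for siRNA #8 against siRNA #7. The lowest values with both siRNAs came from scaling to 10 E1A spike-in probes, RNA added in equal amount to each labeling reaction, under which all genes shifted by -0.29 with siRNA #7 and -0.25 with siRNA #8. The distance between the members and all genes is not changed by such a shift, and was -0.62 with siRNA #8.

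**Figure D5:**
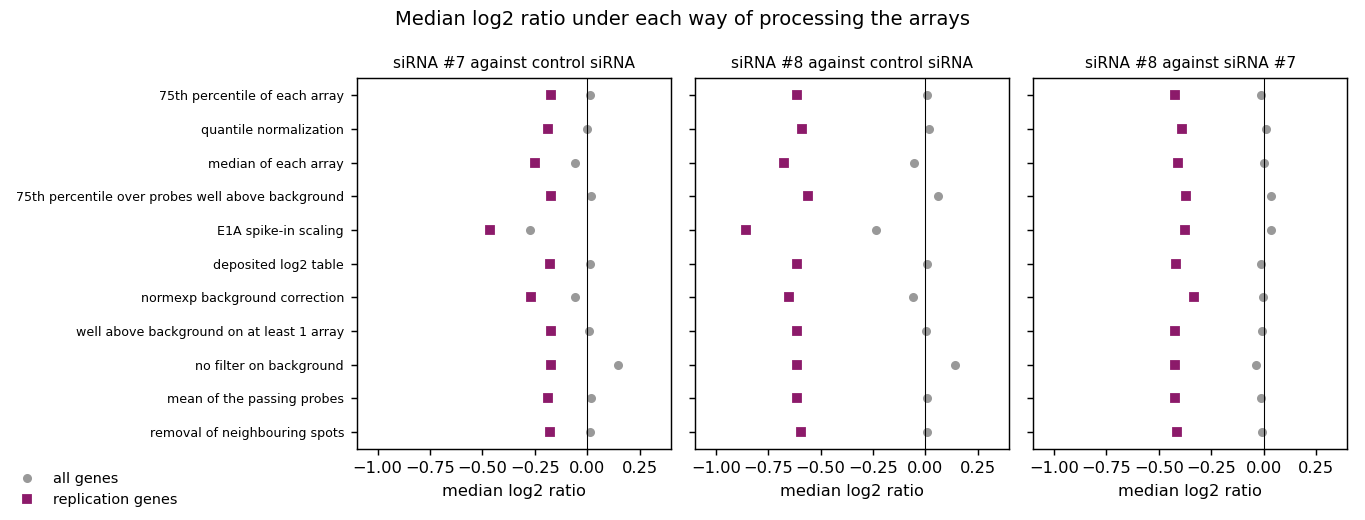
Median log2 ratio of the 45 replication genes (squares) and of all genes (circles) for the 75th percentile scaling and 10 alternatives, in the 3 pairs of arrays. Squares lie below the circles in every setting, and the spike-in scaling moves both to the left in the comparisons with control siRNA, to -0.47 and -0.86 for the members.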

How the data were processed

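Gene expression was measured in HCT116 cells with 1 SurePrint G3 array for each of control siRNA, siRNA #7 and siRNA #8. The authors extracted spots with Agilent Feature Extraction 11.5.1.1, and the deposited intensity of each spot is background-subtracted and not scaled between arrays. The authors also deposited a log2 table. Its differences between arrays had a slope of 1.00 to those of log2 intensity with the shift of the 75th percentile, and all 21164 gene probes matched have a median over the arrays of 0. Its column medians were 0, 0 and 0. The study's methods name GeneSpring. File names number the siRNAs otherwise than the sample labels, and the labels were followed.

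Outlier spots, as flagged by the software, were dropped (313 to 413 per array), spots of a probe were averaged as log2 intensity, and the 75th percentile over 50593 gene probes with a value on all arrays was subtracted. A probe passed if at least 50% of its spots were well above background on each of 3 arrays (18121 probes). Probes were named by matching accessions to RefSeq (GRCh38.p14; 30000 probes), and the brightest passing probe stood for a gene. No gene spot was saturated. Having 1 array per condition limits the precision. The spot-to-spot SD was pooled in 6 ranges of signal from 603 to 620 of 902 probes printed 10 times. It was divided by the square root of a probe's number of spots, and both arrays enter the error of a ratio. With 1 array per condition nothing was tested, and a gene was called past 2-fold, with 1.5-fold as alternative. Where labels say nothing of separate cultures, errors within an array do not stand in for them.

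Members, roles and lists were chosen with earlier results of these data known. All members may be named. Values per array are given for those past 2-fold in any comparison, past 1.5-fold the same way with both siRNAs, or with probes that differ in sign beyond their SD. Others are given by counts, ranges and examples, and of each other list the highest and lowest with siRNA #8. *MCM3* was added as the member just outside 2-fold.

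The 10 alternatives were scaling to each array's median, quantile normalization, a 75th percentile taken over only those probes well above background, 10 E1A spike-in probes, the deposited log2 table, normexp on median spot signals (offset 50, since the files hold no mean signal), passing on at least 1 array, no filter, the mean of passing probes and removal of the deviation of neighbouring spots within 3 rows and columns. Python 3.11.15, numpy 2.4.6, pandas 2.3.3, scipy 1.17.1, matplotlib 3.10.9, R 4.3.3 and limma 3.58.1 were used. The scaling and the 2-fold call were tested on simulated arrays with known fold changes and the same noise for every probe. The choice of the brightest probe was checked on the data. The alternatives, the spot-to-spot SD and the motif search were not part of this test.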

Additional observations from a re-analysis of the deposited data

How the results depend on the processing

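Under the 10 alternatives and the 1.5-fold threshold, 53 of 63 counts and medians of the replication genes stayed within their limits. The limits were the median spot-to-spot SD of a gene for a median and 1.5 times for a count. No median changed sign. Some of these outcomes were fixed in advance. Passing on at least 1 array and no filter on background left the brightest probe of every member, and so its values, unchanged. The deposited log2 table differed only by a small shift, with a median of -0.178 beside -0.175 with siRNA #7. The tally thus overstates how far the results were put to the test. Scaling to E1A spike-in probes moved the median log2 ratio to -0.47 with siRNA #7 and -0.86 with siRNA #8, and the number at least 2-fold lower with siRNA #8 from 9 to 19; it shifts every gene of an array by the same amount. Normexp correction left 0 genes at least 2-fold lower with siRNA #7 and 3 for siRNA #8 against siRNA #7, and removing the deviation of neighbouring spots left 0 and 2, beside 1 and 6; the cause was not tested. By construction, the 1.5-fold threshold gave 2, 25 and 14 genes for siRNA #7, siRNA #8 and siRNA #8 against siRNA #7. Of 330 values of the 11 genes past 2-fold in any comparison, 280 stayed within the spot-to-spot SD and 50 moved beyond it. The 280 include every value under the looser background filters and the deposited log2 table, which could hardly move. Dim probes limit *CDC6* and *CLSPN*, whose spot-to-spot SD of about 0.40 is larger than that of the other members. No paired analysis was possible because there is a single array for every condition.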
